A study of Caenorhabditis elegans with 4 samples.

Results

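The regions described are the NFYA-1 peaks of Caenorhabditis elegans chromosome IV that lie outside the piRNA domains of that chromosome. They were chosen by position alone: a peak of the combined list belonged to the set where its midpoint, in genome build WS180, was below 4500000 (left stretch), from 7000000 to below 13500000 (centre stretch), or at 17200000 or above (right stretch). The rule found 584 of the 853 combined peaks on chromosome IV and of the 5320 on all 6 chromosomes, with 223 in the left, 353 in the centre and 8 in the right stretch. The remaining 269 peaks of IV lay in the intervals between these stretches, called piRNA domain 1 (126 peaks) and piRNA domain 2 (143 peaks) here. These domain limits come from the rule, and piRNA genes were not placed on this build.

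The series used chromatin immunoprecipitation followed by sequencing (ChIP-seq) in late embryos of hermaphrodite strain OP404, grown at 20 °C and fixed with 2% formaldehyde. This strain has the unc-119(ed3) III allele and the transgene wgIs404, which was introduced by bombardment and holds nfya-1::TY1-GFP-3xFLA, the gene fused to green fluorescent protein (GFP) and other tags, beside unc-119(+). There were 2 ChIP libraries, collected with anti-GFP antibodies, and 2 input libraries from the same strain, stage and treatment, each made from 10% of a lysate. Whole embryos were used, so peaks cannot be assigned to a cell type, and the labels do not give the number of cultures behind the libraries. Neither the inputs nor read counts were analysed here, and the depth of each library is unknown.

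NFYA-1 is the worm relative of NF-YA, the subunit of the NF-Y complex that reads the CCAAT box, a common promoter element; the NF-YB and NF-YC subunits hold it on DNA through histone-like folds. In worms, piRNAs are small RNAs that guide the Argonaute PRG-1 in the germ line, and most of their genes are packed into a pair of broad domains on chromosome IV. The stretches described here are the rest of that chromosome. Which genes lie at the peaks, and whether a CCAAT box does, was not analysed here, because gene positions and a genome sequence of build WS180 were not at hand; regions are therefore named by position.

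Each peak is an interval with the authors' q-value, which is a p-value after adjustment over many tests. Peak strength is given as −log10 q, so a larger value is a stronger call; it rises with read depth as well as with enrichment, and it ranks peaks within a list. The replicate 1 list held 2907 peaks, of which 304 lay in the 3 stretches, and the replicate 2 list held 3319, of which 353 did. Peaks along 1 chromosome are not independent replicates, and 2 libraries give no spread to test against. Parts of the chromosome are therefore set side by side with exact 95% intervals, which cover counting error only, and with no test.

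The strongest peak call outside the piRNA domains, by combined q, was in the centre stretch. Its leading region, IV:8430355-8433246, had a combined q of 1.28e-212 and was rank 3 of all 5320 combined peaks. In replicate 1 the q was 1.06e-136 (rank 14) and in replicate 2 it was 7.31e-127 (rank 11). It was also the widest of the 584 peaks, at 2892 bp, and the replicate peaks within it both started more than 1000 bp further right, at 8431507 and 8431358, and ended at 8433202 and 8433191. Both libraries thus placed the signal in the right part of this interval.

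The second region of the centre stretch, IV:11118865-11119548, was 684 bp wide. Its q was 4.13e-164 in the combined list, 1.26e-128 in replicate 1 and 5.80e-118 in replicate 2. IV:11124983-11125879, next in strength, began 5.434 kb beyond its end, with a combined q of 2.27e-106 and replicate values of 4.62e-66 and 1.21e-66. These neighbours were the closest of the 20 centre peaks that ranked among the 500 strongest combined peaks. After these came IV:12616473-12617665 (combined q of 1.62e-84) and IV:11857023-11857874 (2.09e-82). They differed in which list gave the smaller q and the higher place. The former had 7.92e-46 in replicate 1 (rank 74) and 1.81e-57 in replicate 2 (rank 43). The latter had 3.17e-50 (rank 60) and 9.53e-37 (rank 115).

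In the left stretch the leading peaks were weaker by combined q than the first 3 of the centre, and narrower than its first 5. The first, IV:654731-655116, was rank 50 in the combined list with a q of 4.19e-94; replicate 1 gave 6.14e-52 and replicate 2 gave 9.14e-66. Next came IV:4423728-4424353, with 4.82e-93 in the combined list, 1.53e-55 in replicate 1 and 2.22e-49 in replicate 2. Close behind, IV:2388866-2389413 had 5.05e-90, 1.03e-50 and 6.74e-49 in the same order. The next were IV:1860893-1861349 (combined q of 1.95e-71) and IV:1659050-1659460 (1.88e-63). Both had a smaller q and stood higher in the list of replicate 2 than in that of replicate 1. The former had 2.56e-44 (rank 71) against 3.90e-37 (rank 126), and the latter 3.78e-44 (rank 73) against 3.28e-34 (rank 147). These 5 peaks were 386, 626, 548, 457 and 411 bp wide in order of strength. All 5 had matching intervals in both replicates that began within 140 bp of the combined start.

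The right stretch, the tip of the chromosome from 17200000 to the last peak of any list at 17461595, held 8 peaks. The strongest of them were a pair. IV:17278219-17278811 had a combined q of 4.81e-46, with 5.01e-24 in replicate 1 and 2.09e-27 in replicate 2, and IV:17249638-17250200 had 4.00e-41, with 5.24e-24 and 1.51e-21. A further pair was weaker but found in both replicates, IV:17215097-17215396 (combined q of 2.33e-12) and IV:17268575-17268984 (3.83e-10). The other four were weaker again. IV:17333475-17333830 (4.92e-06) was found in replicate 2 alone, with a q of 2.92e-04 there. IV:17375715-17376161 (9.39e-05), IV:17380309-17380589 (2.25e-04) and IV:17455732-17456031 (1.88e-05) overlapped no replicate peak. All 4 peaks found in both replicates lay in the first 100 kb of the stretch, and the others lay beyond it.

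Part of the strongest peaks of the whole list lay in these stretches. Of the 584 peaks, 38 were among the 500 strongest combined peaks (6.51%, exact Clopper-Pearson interval 4.65 to 8.82), where 9.4% of all combined peaks were by construction. There were 16 in the left, 20 in the centre and 2 in the right stretch, and all 38 were found in both replicates. In the piRNA domains 33 of 269 peaks were among the 500 (12.3%, 8.60 to 16.8). Per Mb this came to 3.39 outside the domains (exact Poisson interval 2.40 to 4.65) and 5.32 inside them (3.66 to 7.47), and the intervals overlap. The median −log10 q was 7.51 over the 584 peaks (exact interval 6.82 to 7.97), 8.83 in the piRNA domains (8.41 to 9.90) and 8.15 over all combined peaks (7.98 to 8.39). In the combined list the interval of the 584 peaks lies below both of the others, but only just below that of all combined peaks, which include them. In replicate 1 the median was 7.10 (6.23 to 7.77) against 6.88 in the domains (6.19 to 8.17). In replicate 2 it was 6.55 (6.08 to 7.05) against 7.10 (6.43 to 8.21). For combined peaks in both replicates it was 14.6 (13.6 to 16.5) against 16.0 (14.0 to 18.4). In each of these comparisons the intervals overlap. By stretch the median over all combined peaks was 7.80 in the left (quartiles 5.16 and 14.3), 7.16 in the centre (4.83 and 12.1) and 7.36 in the right (4.55 and 18.8). The exact intervals of the left and centre medians, 6.96 to 8.95 and 6.46 to 7.95, overlap.

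The left stretch held 50.1 combined peaks per Mb over 4.45 Mb (exact Poisson interval 43.8 to 57.2) and the centre 54.3 over 6.50 Mb (48.8 to 60.3). The right stretch held 30.6 per Mb over 0.262 Mb, but its 8 peaks allow 13.2 to 60.3. The ratio of the centre to the left was 1.08 (exact interval 0.914 to 1.29), that of the right to the left 0.610 (0.260 to 1.22), and that of the right to the centre 0.563 (0.241 to 1.12). Each interval includes 1. In replicate 1 the densities of the left, centre and right stretches were 27.0, 27.7 and 15.3 per Mb, and in replicate 2 they were 32.1, 31.4 and 22.9.

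Taking all combined peaks, the 3 stretches held more peaks per Mb than the piRNA domains, with 52.1 peaks per Mb (exact interval 47.95 to 56.5) against 43.4 (38.4 to 48.9), a ratio of 1.20 (1.04 to 1.39). For stronger or replicated peaks the interval of this ratio included 1. For combined peaks found in both replicates it was 0.978 (0.796 to 1.21), with 23.2 per Mb outside and 23.7 inside, and for the stronger 2660 combined peaks it was 0.919 (0.750 to 1.13). In the replicate lists it was 1.01 (0.836 to 1.23) and 1.04 (0.868 to 1.25). The interval of the stronger peaks lies below 1.20, and the other 3 include it. Domain 1 had 50.4 combined peaks per Mb (42.0 to 60.0), close to the left stretch (ratio of left to domain 1 of 0.995, 0.796 to 1.25). Domain 2 had 38.6 per Mb (32.6 to 45.5). The intervals of the domains overlap, and no ratio between them was taken. The ratio to domain 2 was 1.30 for the left (1.05 to 1.61) and 1.41 for the centre (1.15 to 1.72). The right stretch had fewer peaks per Mb than either domain, with ratios of 0.607 to domain 1 (0.256 to 1.23) and 0.791 to domain 2 (0.335 to 1.60), and both intervals include 1. An interval wholly above 1 was thus found for all combined peaks of the 3 stretches together, and for the left and the centre against domain 2. With edges moved by 100 kb these intervals stayed above 1. For peaks in both replicates the ratio to domain 2 was 1.05 for the left (0.775 to 1.42) and 1.08 for the centre (0.822 to 1.43). Among the stronger 2660 it was 1.03 (0.764 to 1.38) and 0.984 (0.749 to 1.30). Each of these intervals includes 1, and so did those from each replicate list alone.

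**Figure D1:**
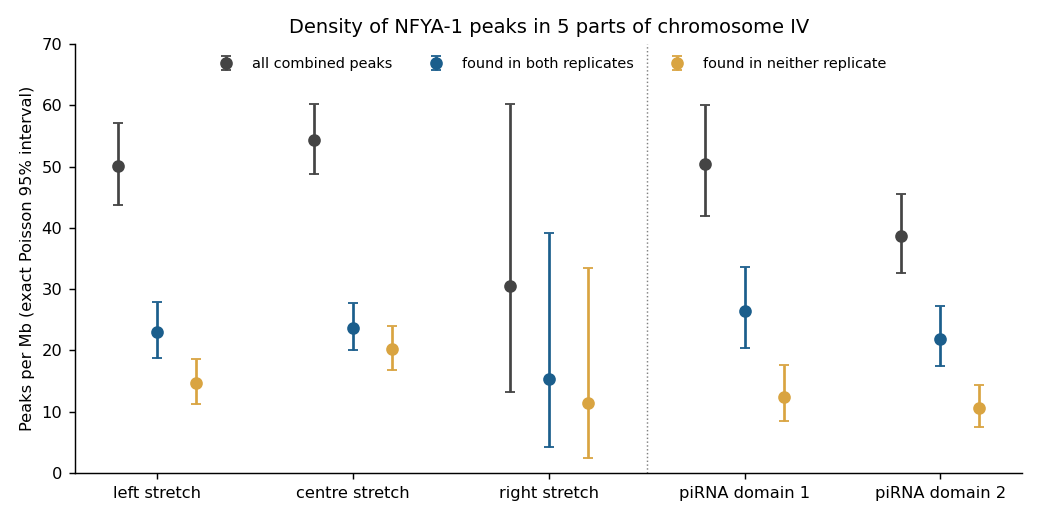
Combined NFYA-1 peaks per Mb (vertical axis) in the 3 stretches and the 2 piRNA domains of chromosome IV, with points for all peaks, those found in both replicates and those found in neither, and bars for exact Poisson 95% intervals. Peaks found in both replicates run from 21.9 to 26.4 per Mb outside the small right stretch, while those found in neither reach 20.2 per Mb in the centre stretch and 10.5 in domain 2.

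Peaks that overlapped no replicate peak made up much of this contrast, with 17.8 per Mb outside the domains (exact interval 15.4 to 20.4) and 11.3 inside them (8.80 to 14.3). They numbered 14.6 per Mb in the left stretch (exact interval 11.3 to 18.6), 20.2 in the centre (16.9 to 23.9) and 11.5 in the right (2.36 to 33.5). In domain 1 there were 12.4 per Mb (8.43 to 17.6) and in domain 2 there were 10.5 (7.50 to 14.4). The interval of the centre stretch does not overlap that of domain 2.

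Of the 584 peaks, 260 overlapped a peak of both replicates by at least 1 bp (44.5%, Clopper-Pearson interval 40.4 to 48.7), against 46.4% of all combined peaks. A further 42 overlapped replicate 1 alone (7.19%, background 7.39%) and 83 replicate 2 alone (14.2%, background 14.1%). The remaining 199 overlapped neither (34.1%, 30.2 to 38.1), against a background of 32.1%. All these shares are near the background, and nothing is read from them about these stretches.

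Among the stretches, both replicates supported 102 of 223 peaks on the left (45.7%, 39.1 to 52.5), 154 of 353 in the centre (43.6%, 38.4 to 48.98) and 4 of 8 on the right (50.0%, 15.7 to 84.3). Support by neither was 29.1% on the left (23.3 to 35.6), 37.1% in the centre (32.1 to 42.4) and 3 of 8 on the right (37.5%, 8.52 to 75.5). In the piRNA domains 147 of 269 peaks were in both replicates (54.6%, 48.5 to 60.7) and 70 in neither (26.0%, 20.9 to 31.7). The interval for both replicates there overlaps that of each stretch, for the centre only between 48.5 and 48.98. Such an overlap does not show that the shares are equal. The interval for neither overlaps those of the left and right stretches and lies below that of the centre.

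Support followed strength on these stretches, as it did over all combined peaks. By its name the combined list joins the replicates, so combined strength and overlap with the replicate lists are not independent. Of the 256 peaks that ranked among the stronger 2660 of the combined list, 236 were in both replicates (92.2%, 88.2 to 95.2) and 5 in neither (1.95%, 0.637 to 4.50). Of the 328 weaker ones, 24 were in both (7.32%, 4.74 to 10.7) and 194 in neither (59.1%, 53.6 to 64.5). The same shares in both replicates were 87.7% (81.4 to 92.4) and 10.4% (5.51 to 17.5) in the piRNA domains, and 86.1% (84.8 to 87.4) and 6.69% (5.77 to 7.71) over all combined peaks. The shares in neither were 1.95% and 58.3% in the piRNA domains, and 1.77% and 62.4% over all combined peaks, near those of the 584. Within each class the intervals of the 584 peaks and the domains overlap. For the stronger peaks in both replicates the interval of the 584 lies above that of all combined peaks. Of the peaks outside the domains, 43.8% ranked among the stronger 2660 (39.8 to 47.97), against 57.2% of those inside (51.1 to 63.2) and, by construction, 50.0% of all combined peaks. With the list cut into 10 equal parts by rank, all 147 peaks of the 3 strongest parts were in both replicates (background 99.0%), and 1 of the 128 peaks of the 2 weakest parts was (background 0.282%).

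**Figure D2:**
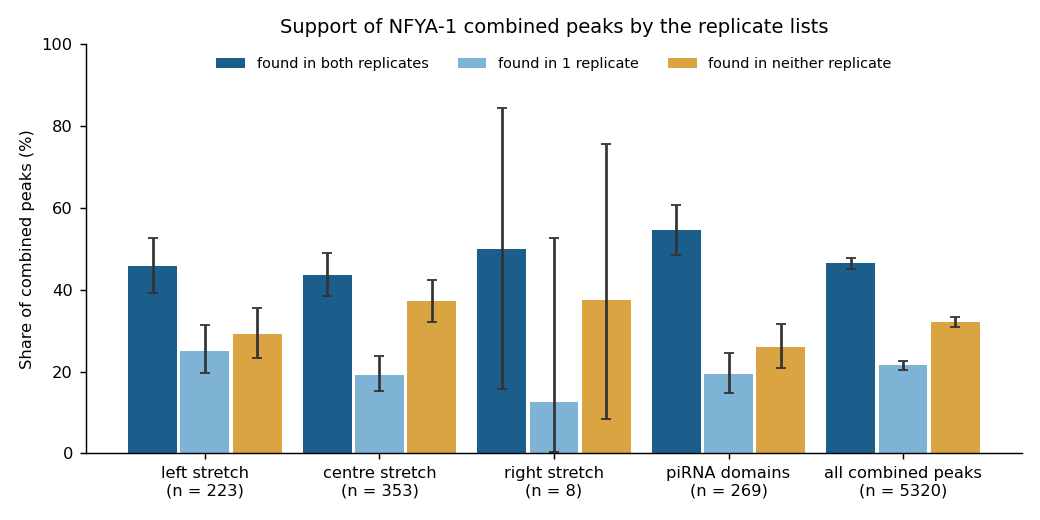
Share of combined NFYA-1 peaks (vertical axis, %) found in both replicate lists, in 1 and in neither, for the 3 stretches, the piRNA domains together and all combined peaks, with Clopper-Pearson 95% intervals. The left and centre stretches stand near all combined peaks (45.7% and 43.6% against 46.4% in both replicates), and the 8 peaks of the right stretch give intervals too wide to place it.

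Some unsupported peaks were strong for their class. In the left stretch the strongest peak found in neither replicate was IV:3520958-3522057, 1100 bp wide with a combined q of 1.58e-12. In the centre it was IV:10868741-10870255, 1515 bp wide with 4.57e-11. The strongest found in 1 replicate were IV:2602938-2604104 on the left (2.37e-12; 4.11e-05 in replicate 1) and IV:10734530-10734832 in the centre (6.91e-12; 8.47e-06 in replicate 2). The weakest peak that both replicates held was IV:9032605-9032877 in the centre, with 2.24e-04 in the combined list, 2.30e-04 in replicate 1 and 2.35e-04 in replicate 2.

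Read from the replicate lists, 260 of the 304 replicate 1 peaks on these stretches overlapped a replicate 2 peak (85.5%, 81.1 to 89.3, background 85.7%). In the other direction 262 of 353 replicate 2 peaks overlapped a replicate 1 peak (74.2%, 69.3 to 78.7), where 75.0% of all replicate 2 peaks did. Nearly all had a combined interval: 2 replicate 1 peaks (background 0.757%) and 8 replicate 2 peaks (background 2.23%) had none. All 10 were weak and were found in 1 replicate only. The strongest were IV:11081279-11081494 in replicate 1 (q of 1.34e-04) and IV:13024100-13024240 in replicate 2 (9.00e-05), both in the centre. On the left it was IV:1399990-1400189 (1.56e-04), and on the right IV:17461251-17461595 (1.02e-04), both in replicate 2. Every stronger replicate peak of these stretches had a combined interval.

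Strengths in the replicates were set side by side at the 260 peaks found in both, a choice that leaves out peaks called in 1 list only. The median log2 ratio of −log10 q in replicate 1 to that in replicate 2 was -0.05 (exact interval -0.15 to 0.04). Of the 260 peaks, 249 (95.8%, background 96.7%) lay within 1 on this scale, which allows up to a 2-fold difference in −log10 q. The median ratio was -0.17 on the left (-0.26 to 0.03), 0.01 in the centre (-0.07 to 0.09) and -0.05 over the 4 peaks of the right stretch. In the piRNA domains it was -0.13 (-0.23 to -0.06). These values compare 2 libraries of unknown depth, and the intervals of the left, the centre and the domains overlap. Spearman's rho between the replicates was 0.798 across the 260 peaks, which share both libraries, and 0.822 across all 2469 combined peaks found in both. The combined −log10 q exceeded both replicate values at 259 of the 260 (99.6%, background 99.4%). These values are near those of all combined peaks.

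The peaks with the largest differences were chosen after their values were seen. With a combined −log10 q of 22.0 (rank 862), IV:3338684-3339037 in the left stretch differed most towards replicate 2. Its q was 6.07e-07 in replicate 1 (rank 1732) and 3.79e-17 in replicate 2 (rank 517), a log2 ratio of -1.40. At the other end, IV:13025705-13026573 in the centre, with a combined −log10 q of 11.6 (rank 1844), had 4.15e-10 and 3.78e-05, a ratio of 1.08.

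**Figure D3:**
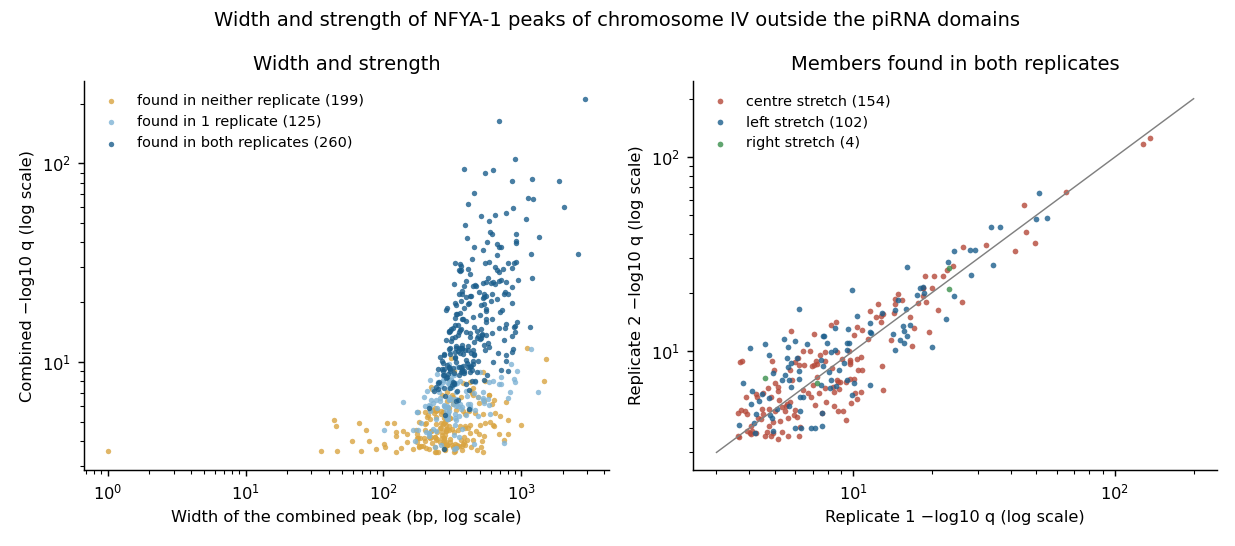
The left panel plots combined −log10 q against peak width in bp (both log axes) for the 584 peaks, coloured by the replicate lists that held them, and the right panel plots replicate 2 against replicate 1 −log10 q (log axes) for the 260 peaks found in both, with the line of equal values. Peaks found in both replicates fill the upper right of the left panel, and the right panel scatters around the line in all 3 stretches.

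The median width was 354.5 bp over the 584 peaks (quartiles 277 and 513), against 352.5 bp for all combined peaks and 370 bp in the piRNA domains. It was 343 bp on the left (exact interval 325 to 369), 361 bp in the centre (334 to 380) and 383 bp on the right (281 to 593), and these intervals overlap. The left stretch ranged from 35 to 2051 bp, the centre from 1 to 2892 bp and the right from 281 to 593 bp. Peaks covered 2.03% of the left stretch, 2.41% of the centre and 1.24% of the right.

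Better supported peaks had larger median widths. Median width was 430.5 bp for peaks in both replicates, 313 bp for peaks in 1 and 285 bp for peaks in neither. These medians were 424, 315 and 283 bp over all combined peaks, and 428, 321.5 and 297.5 bp in the piRNA domains. The pattern is thus that of the whole list and not particular to the stretches. Across the 584 peaks, Spearman's rho between width and −log10 q was 0.595, against 0.587 over all combined peaks. It was 0.666 on the left and 0.562 in the centre. Both measures come from the same call. At the 302 peaks with a replicate 1 match, the combined interval was wider than the replicate interval in 251 (background 85.2%), and the median ratio of the widths was 1.14, as against 1.14 over all combined peaks. At the 343 with a replicate 2 match it was wider in 288 (background 83.5%), with a median ratio of 1.13 against 1.15 over all.

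Peaks over 1000 bp wide numbered 17 (2.91%, 1.70 to 4.62, background 3.72%), with 5 on the left, 12 in the centre and 0 of 8 on the right, which allows a share of up to 36.9%. Of the 17, 12 were in both replicates, 3 in neither and the others in 1. Over all combined peaks, 160 of 198 peaks this wide were in both and 14 in neither. In the piRNA domains 12 of 16 were in both and 1 in neither. With so few wide peaks, nothing is read from these counts about the stretches. On the left the widest was IV:3232628-3234678 at 2051 bp, with a combined q of 6.00e-61 and replicate values of 6.52e-35 and 1.36e-28. After the leading centre region, the widest was IV:13028997-13031591 at 2595 bp, with 9.83e-36, 2.86e-19 and 6.23e-20. At the other extreme 11 peaks were under 100 bp wide (background 1.58%), none of them in a replicate list. The same held for all 4 such peaks of the piRNA domains, and the share over all combined peaks was not counted. The narrowest on the left was IV:2329645-2329679 at 35 bp (q of 2.68e-04), and in the centre a single base, IV:7149837-7149837 (2.73e-04). In the right stretch the narrowest was the 281 bp peak at 17380309.

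Neighbouring peaks of the same stretch were a median of 10.06 kb apart (quartiles 2.634 and 25.8 kb over 581 gaps), against 9.32 kb between neighbours over all chromosomes. The median gap was 10.98 kb on the left (exact interval 7.51 to 14.8), 9.80 kb in the centre (8.11 to 11.8) and 34.2 kb over the 7 gaps on the right (4.15 to 75.1). The left and centre intervals overlap. Between peaks found in both replicates the median gap was 26.4 kb, with 27.8 kb on the left and 25.9 kb in the centre.

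**Figure D4:**
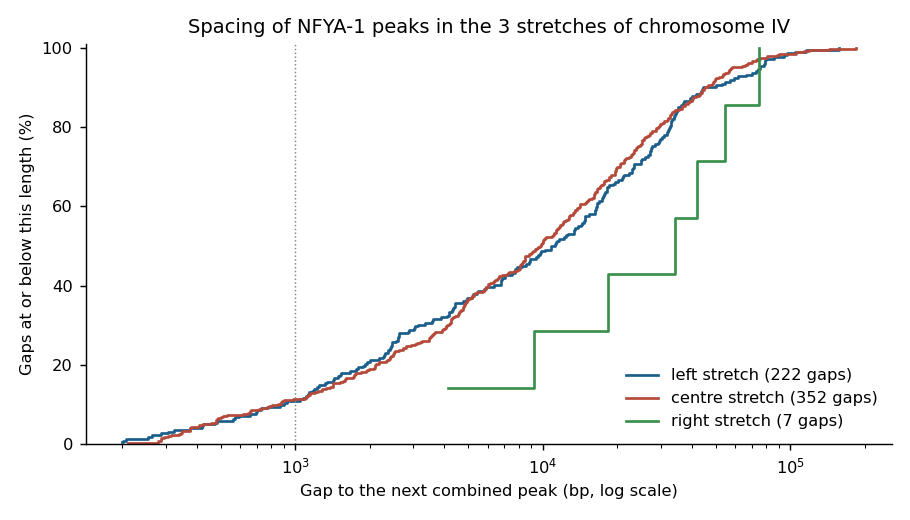
Cumulative share of gaps (vertical axis, %) at or below each length (horizontal axis, bp, log scale) between neighbouring combined NFYA-1 peaks of the left, centre and right stretches; the dotted line marks 1000 bp. The left and centre curves run close together, with medians of 10.98 and 9.80 kb, and the 7 gaps of the right stretch start at 4.147 kb.

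Gaps under 1000 bp numbered 64 of 581 (11.0%, 8.59 to 13.8, background 10.6%), with 24 on the left (10.8%) and 40 in the centre (11.4%). On the right there were 0 of 7, which allows a share of up to 41.0%. The 64 close pairs joined 117 peaks. In 11 pairs both members were in both replicates, in 32 only 1 member was, and 36 pairs had a member that neither replicate held. The stronger member had a median −log10 q of 13.5 and the weaker one of 4.78. No replicate peak spanned both members of any of the 64 pairs. The piRNA domains were much alike, with 8, 15 and 16 of 30 close pairs in these classes and medians of 12.7 and 4.81. No replicate peak spanned a pair there either. These values were not taken over all combined peaks, and they are not particular to the stretches.

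The closest pair on the left was 200 bp apart, the smallest gap of any list. Its members, IV:4397629-4398051 (combined q of 1.96e-28) and IV:4398252-4399592 (1.56e-43), were separate peaks in both replicates too, with 3.39e-16 and 5.68e-25 in replicate 1 and 3.89e-14 and 7.56e-20 in replicate 2. In the centre the closest pair, IV:9773551-9773817 (1.52e-07) and IV:9774030-9774545 (1.01e-04), was 212 bp apart and in neither replicate list. The closest on the right were 4.147 kb apart, IV:17375715-17376161 and IV:17380309-17380589.

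Gaps over 100 kb numbered 8 (1.38%, background 1.81%), 3 on the left and 5 in the centre. The longest on the left ran 158.2 kb from IV:3858812-3859514 to IV:4017673-4017898, and that in the centre 184.05 kb from IV:10512770-10513084 to IV:10697131-10697368. All 4 flanking peaks were weak (q from 4.71e-06 to 1.83e-04) and in neither replicate. The longest gap on the right was 75.1 kb.

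In sections of 500 kb, the left stretch held 15 to 33 combined peaks with a mean of 24.8 ± 5.61 (SD, 9 sections), and the centre 19 to 34 with a mean of 27.2 ± 4.72 (SD, 13 sections). The poorest left section was 2000000 to 2499999 with 15 peaks, and the richest was 1500000 to 1999999 with 33, of which 14 were in both replicates and 14 in neither. In the centre the counts went from 34 in the section from 7000000 to 19 in that from 9500000, where 4 peaks were in both replicates. The section from 11000000 to 11499999, which holds the centre peaks at 11118865 and 11124983, had 32 combined peaks, 16 of them in both replicates, 21 replicate 1 peaks and 20 replicate 2 peaks. In sections of 100 kb the median was 5 peaks in either stretch. On the left 2 of 45 such sections were empty in all 3 lists, 3400000 to 3499999 and 3900000 to 3999999, and none of the 65 in the centre was empty in the combined list. The variance of these counts was 1.70 times their mean on the left and 1.20 times in the centre. In domain 1 it was 1.96 times the mean and in domain 2 it was 1.57 times, so the left value lies between them. Empty 100 kb sections of the combined list numbered 1 of 25 in domain 1 and 2 of 37 in domain 2.

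**Figure D5:**
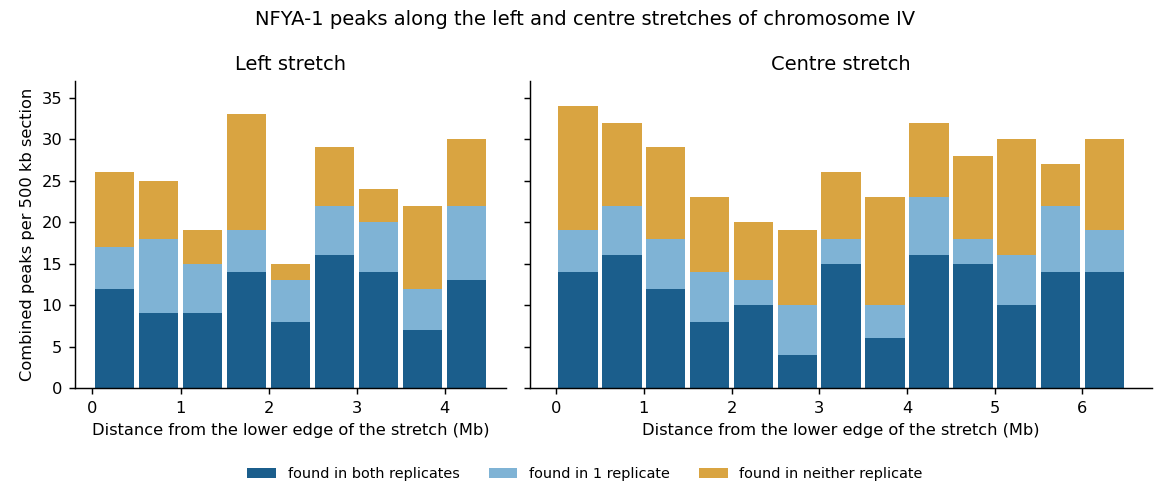
Combined NFYA-1 peaks per 500 kb section (vertical axis) along the left and centre stretches, by distance in Mb from the lower edge of the stretch, with bars stacked by support in the replicate lists. Counts range from 15 to 33 on the left and from 19 to 34 in the centre, and every section holds peaks of all 3 kinds.

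At the edges of the stretches, the peaks just inside and just outside were as follows. At 4500000 the last left peak was IV:4469865-4470554 (q of 1.98e-08, replicate 1 alone) and the first domain 1 peak IV:4506637-4506925 (2.94e-08, replicate 2 alone). At 7000000 the last domain 1 peak was IV:6959482-6959844 (2.77e-05, in neither) and the first centre peak IV:7016527-7017404 (1.18e-15, in both). At 13500000 the last centre peak was IV:13487596-13488030 (3.40e-22, in both) and the first domain 2 peak IV:13519033-13519190 (1.53e-04, in neither). At 17200000 the last domain 2 peak was IV:17118566-17119259 (5.28e-16, in both) and the first right peak was IV:17215097-17215396. The closest of these 8 midpoints was 6.78 kb from its edge and the farthest 81.1 kb, so a shift of an edge by less than 6.78 kb moves no peak between parts.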

How the data were processed

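The authors called peaks with PeakSeq on genome build WormBase WS180, per the file headers. The only value deposited per peak is a q-value. Not given in the sources used here are the aligner, the version and threshold of PeakSeq, the use of the inputs and the making of the combined list. That this list joins the replicates is known from its name alone, and its overlap with them is therefore no independent evidence.

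From the 3 lists, peaks were placed by midpoint and compared by overlap of at least 1 bp. Each peak was matched to the strongest overlapping replicate peak. The span of chromosome IV was taken as 51116 to 17461595, the outermost peak ends of the lists, and a gap is the number of bases between neighbours. Shares carry Clopper-Pearson intervals, densities exact Poisson intervals, density ratios intervals conditional on the total count, and medians order-statistic intervals, all at 95%. The functions were tested on simulated data. Named by rule were, per stretch, the 5 strongest peaks (all 8 on the right), the extremes of width and gap, the strongest peaks with partial support and the edge peaks. The members and rules were chosen with earlier results of these data known. SciPy 1.17.1 and NumPy 2.4.6 gave the intervals, pandas 2.3.3 the tables and matplotlib 3.10.9 the plots, under Python 3.11.15.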

Additional observations from a re-analysis of the deposited data

How the results depend on the processing

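Of 48 alternative values for the ratios and for the members as a whole, 32 lay within the interval of the value reported (counts: within 1.5 times) and 16 did not. The density ratio of the stretches to the piRNA domains, 1.20, turned to 0.919 among the stronger 2660 peaks and 0.978 among peaks in both replicates. It was 1.01 to 1.04 with 1 replicate list alone, and 1.16 to 1.20 with edges moved by 100 kb or the span begun at base 1. The 3 ratios among stretches stayed within their intervals. The share in both replicates was 92.2% among stronger peaks, and 51.7 to 58.7% where 1 replicate sufficed. Median width was 449 bp for stronger and 430.5 bp for replicated members, and 341 to 360 bp in single lists. The median gap was 24.9 and 26.4 kb for these sets and 19.9 to 21.4 kb in single lists, as fewer peaks entered. Median −log10 q was 14.6 for replicated members and 6.55 to 7.10 in single lists. With a 50% reciprocal overlap, 14 replicate 1 and 32 replicate 2 peaks had no combined interval. No paired analysis was possible because nothing but q-values of called peaks was at hand, and input values were not used here. Without read depth, a peak missing from 1 list cannot be called unbound there.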

Other observations

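Runs of at least 3 peaks, each under 1000 bp from the next, occurred 5 times on the left and 4 times in the centre, and these values were looked up after the other results were known. A run of 4 lay on the left from IV:2664334 to 2666917, with 0 peaks in both replicates, 2 in neither and a strongest q of 1.13e-09. The run of 4 in the centre, from 10502411 to 10506943, held 1 peak in both replicates (q of 2.24e-40) and 3 in neither.

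Peaks of unlike support, some of them over 1000 bp wide, lay close together near the right end of the centre stretch. IV:13020585-13022034 was 1450 bp wide (q of 9.00e-09) and in neither replicate. IV:13025705-13026573, 869 bp wide, was found in both and was the peak most in favour of replicate 1. The 2595 bp region IV:13028997-13031591 followed, also in both replicates. The replicate 2 peak with the smallest q and no combined interval on these stretches, IV:13024100-13024240, lay between the first and the second of them.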
